A study of Nothobranchius furzeri with 20 samples.

Results

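The brain of the turquoise killifish, Nothobranchius furzeri, was compared between 14 and 7 weeks of age in males of the strain GRZ, with 5 RNA-seq libraries at each age. These 10 libraries are part of a series of 20, which also holds 5 libraries of 5 weeks and 5 of 10 weeks, and they were taken by their age label alone. The labels give the same sex, strain and tissue for all samples and name no treatment. The groups differ by the age label, and all 14-week samples also carry higher running numbers in their titles than all 7-week samples, so age and this order cannot be told apart. The turquoise killifish lives in seasonal ponds that dry out, and GRZ is a short-lived laboratory strain of it, in which growth, sexual maturity and signs of ageing follow each other within months. In the ageing brain of vertebrates, changes in myelin, synaptic genes, immune genes and the proliferation of neural progenitors are commonly described. None of these groups could be looked up here, since the count table gives gene identifiers without names and 0 of its 26739 identifiers occur in the RefSeq gene table of the species. The tissue could not be checked against brain markers for the same reason, and genes are described by their level, length and course over age. In bulk tissue, fewer cells of a type and less RNA per cell cannot be told apart.

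The 14-week libraries held 18953947 to 23091906 counts and the 7-week libraries 21592055 to 30723528. Of the 10 libraries, 7-week replicate 3 stood apart. Its Spearman rho with the other libraries had a median of 0.925, against 0.968 to 0.985 for the other 9, and the main results below are also given without it. Its closest neighbour was 14-week replicate 5, at a rho of 0.961. Without replicate 3, pairs of 7-week libraries had rho values of 0.982 to 0.995 (median 0.988), pairs of 14-week libraries 0.965 to 0.993 (median 0.977) and pairs of 1 library of each age 0.954 to 0.988 (median 0.978). Libraries of different age were therefore about as alike over all genes as those of 14 weeks were among themselves.

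Between 7 and 14 weeks 282 genes rose, 1.45% of the 19474 tested, and 202 fell, 1.04% (together 484 genes, 2.49%; quasi-likelihood test of edgeR at an adjusted p under 0.05). Without 7-week replicate 3, 478 genes rose (2.44% of 19588) and 288 fell (1.47%), together 3.91%. Before adjustment 3407 genes (17.5%) had a p under 0.05, 1831 of them higher and 1576 lower; leaving out replicate 3 made this 4098 (20.9%). In 214 of the 282 rising genes every 14-week library lay above every 7-week library, and in 154 of the 202 falling genes every 14-week library lay below. In the whole table such a separation was seen upward in 583 genes (2.99%) and downward in 442 (2.27%). Without replicate 3 these were 1175 (6.03%) and 1191 (6.12%). Leaving out any library can only add separated genes, so part of this increase is fixed in advance. The called genes were chosen for the difference between both ages, so their separation describes them and is no further evidence.

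The level of the called genes was followed library by library, as the median over the list of log2 CPM (CPM being counts scaled to library size) minus the gene's mean over the 10 libraries. For the rising genes it was -0.29, -0.50, -0.45, -0.36 and -0.24 in 7-week replicates 1 to 5. At 14 weeks it was 0.41, 0.26, 0.36, 0.47 and 0.35. The ages that this contrast does not compare lay mostly between, with -0.15 to -0.01 in the 5-week libraries and 0.04 to 0.28 in the 10-week libraries, of which only replicate 4 exceeded the lowest 14-week library. For the falling genes it was 0.22, 0.36, 0.43, 0.24 and 0.07 in 7-week replicates 1 to 5 and -0.38 to -0.18 at 14 weeks. There 4 of the 10-week libraries lay within the range of the 14-week libraries and replicate 5, at -0.15, lay just above it, while the 5-week libraries ran from -0.01 to 0.17. The 7-week libraries were thus the lowest of all ages in the rising genes. In the falling genes 4 of the 7-week libraries lay above all 5-week libraries, and 7-week replicate 5, at 0.07, lay within the 5-week range. Both lists were chosen for a difference of 7 from 14 weeks, which by itself favours an extreme place of the 7-week libraries. Whether 7 weeks is an extreme of the course over age was not tested.

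**Figure D1:**
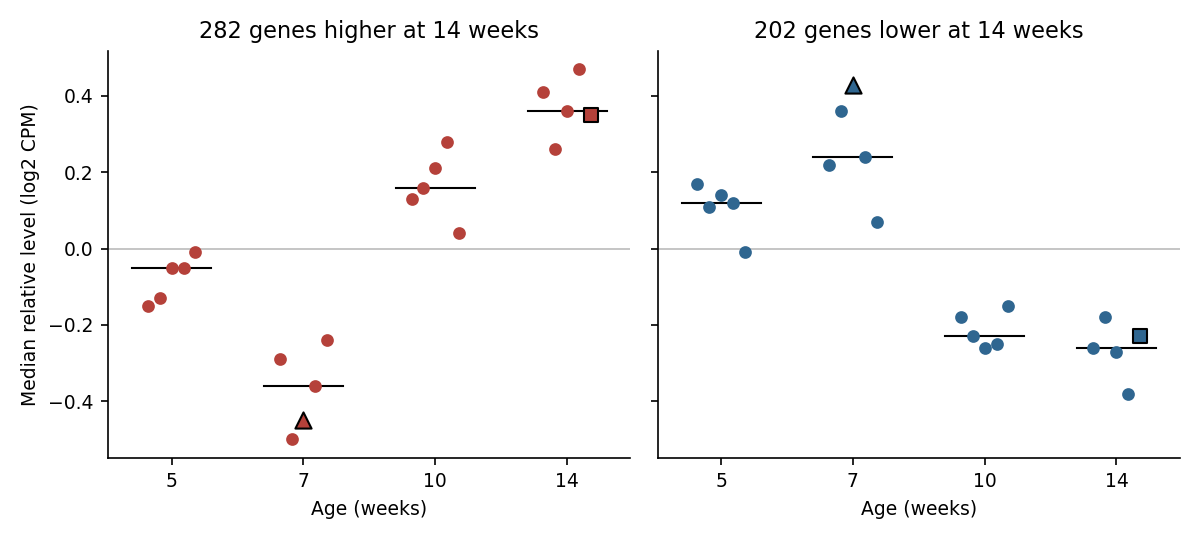
Median relative level (log2 CPM minus the gene's mean over the 10 libraries of 7 and 14 weeks) of the 282 genes called higher and the 202 called lower at 14 than at 7 weeks, 1 point per library by age in weeks, with a bar at the median of each age. The triangle is 7-week replicate 3 and the square 14-week replicate 5. The genes were chosen on the 7- and 14-week libraries. The 10-week libraries lie at 0.04 to 0.28 in the rising genes, mostly below 14 weeks, and at -0.26 to -0.15 in the falling ones, mostly level with 14 weeks.

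The same libraries most often stood at the ends of these ranges in both lists. The highest 14-week library was replicate 4 in 112 of the 282 rising genes, against 37 to 50 for each other replicate, and it was the lowest in 96 of the 202 falling genes, against 20 to 34. At 7 weeks the lowest library of a rising gene was replicate 2 in 104 genes and replicate 3 in 103, against 13 to 38 for the others. The highest library of a falling gene was replicate 3 in 109 genes and replicate 2 in 64, against 7 to 15. The 7-week library nearest to 14 weeks in both medians was replicate 5, which was the extreme one in 13 rising and 7 falling genes. How often each library was the extreme one over all tested genes was not counted, and 7-week replicate 3 stood apart over all genes. These counts are therefore not read as a trait of the called genes.

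Most changes were moderate, and the called rises were larger than the called falls. The log2 fold change of the rising genes had quartiles of 0.58, 0.76 and 1.10, and that of the falling genes -0.71, -0.54 and -0.43, while the median over all tested genes was 0.00 and their median absolute change 0.18. All tested genes had the same skew, with 5% of them below -0.46 and 5% above 0.68. With 7-week replicate 3 left out, the quartiles were 0.51, 0.68 and 1.06 for the rising and -0.65, -0.51 and -0.39 for the falling genes. A change within 1.5-fold was seen in 72 rising and 117 falling genes, and in 170 and 187 of those called without 7-week replicate 3. Changes beyond 2-fold numbered 90 among the rising and 22 among the falling genes, and changes beyond 4-fold 10 and 8, and 562 of all tested genes (2.89%) lay beyond 2-fold. Without 7-week replicate 3, 136 rising and 22 falling genes lay beyond 2-fold, and 19 and 8 beyond 4-fold. The standard error had a median of 0.15 in the called genes and 0.18 in all genes, in log2 units.

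Rising and falling genes differed in abundance. Falling genes had a median of 38.2 CPM over the 20 libraries and rising genes 16.4, against 17.5 for all tested genes; the lists called without 7-week replicate 3 had 40.9 and 16.8. Per kilobase of gene length the medians were 10.9 CPM in the falling, 4.62 in the rising and 7.37 in all genes. Among the 2388 genes with a mean of at least 100 CPM, 15 rose (0.628%) and 34 fell (1.42%). Among the 5953 genes of 1 to 10 CPM the order was the other way, with 99 rising (1.66%) and 29 falling (0.487%). Between 10 and 100 CPM, where 9619 genes lay, 161 rose (1.67%) and 137 fell (1.42%). Below 1 CPM 7 rose and 2 fell of 1514 genes. Without 7-week replicate 3 the same order was seen, with 27 rising and 58 falling genes at 100 CPM or more, and 161 and 39 at 1 to 10 CPM. All tested genes tilted the same way. Their median log2 fold change was 0.20 below 1 CPM, 0.069 at 1 to 10 CPM, -0.023 at 10 to 100 CPM and -0.04 above. Without 7-week replicate 3 these medians were 0.207, 0.067, -0.016 and -0.055. The order is therefore not read as a trait of the called genes alone, and the shares were not tested against each other. The precision also differed by class, with a median standard error of 0.46 below 1 CPM, 0.25 at 1 to 10 CPM and 0.14 in both higher classes.

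**Figure D2:**
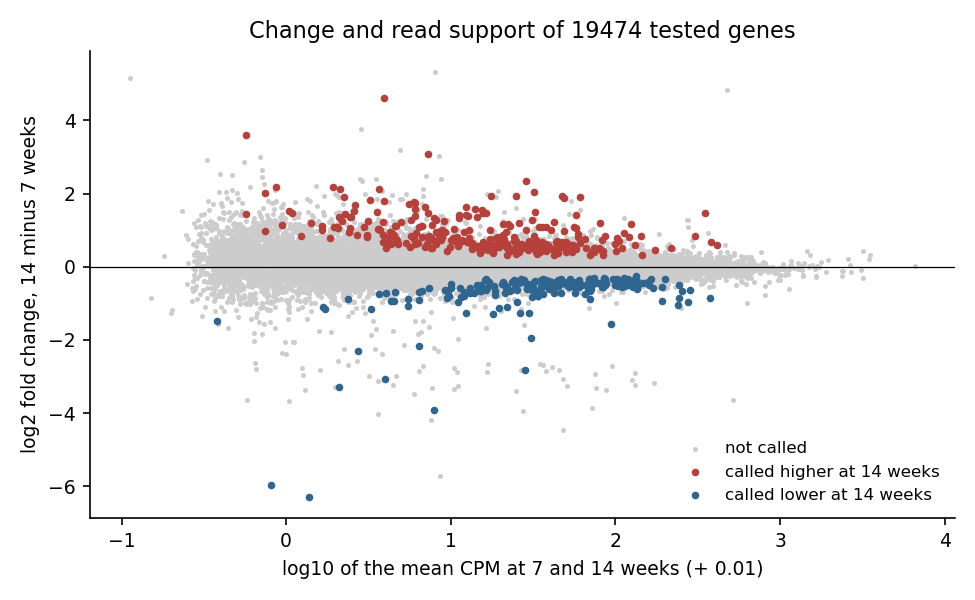
log2 fold change between 14 and 7 weeks against the log10 of the mean CPM of both ages (plus 0.01), for 19474 tested genes; called genes are coloured by direction. Calls lie mostly between 1 and 100 CPM. A group of genes far below 0 was not called.

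Of the 159 rising and 126 falling genes that were called with and without 7-week replicate 3, separated all libraries and had a mean of at least 5 CPM, the first 2 by fold change are named for each direction. Nfu_g_1_010812 had 8.57, 3.82, 6.12, 6.86 and 21.2 CPM in 7-week replicates 1 to 5 and 57.3, 35.3, 67.2, 40.8 and 37.1 CPM in 14-week replicates 1 to 5. All 7-week libraries but replicate 5 were below 10 CPM, and the groups did not overlap. The mean rose from 9.31 ± 6.86 CPM (SD, n = 5) to 47.6 ± 14.0, which edgeR fitted as 2.35 ± 0.38 (SE) in log2 units, with an adjusted p = 0.0045. Its libraries ran from 9.87 to 33.35 CPM at 5 weeks and from 25.01 to 39.5 CPM at 10 weeks, so that by the means 7 weeks was the lowest point of its course. The fit that leaves out replicate 3 gave 2.23 (edgeR adjusted p = 0.0096).

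Nfu_g_1_021289, a gene of 9483 bases, had 10.9, 5.87, 12.5, 24.9 and 8.11 CPM in the 7-week libraries. In the 14-week libraries it had 46.5, 73.09, 71.7, 41.1 and 27.2 CPM. The highest 7-week library, replicate 4, lay just under the lowest 14-week library, replicate 5. Its log2 change was 2.06, with an SE of 0.43 (adjusted p of edgeR = 0.017), from 12.5 ± 7.41 CPM (SD, n = 5) at 7 weeks to 51.9 ± 19.95 CPM (SD, n = 5) at 14 weeks. In contrast to the first gene it was as low at 5 weeks, with a mean of 13.8 CPM, as at 7 weeks, and it averaged 18.4 CPM at 10 weeks, where replicate 1 reached 35.5 CPM. It was again 2.06 when replicate 3 was left out (edgeR adjusted p = 0.029). Without 7-week replicate 2 it was 1.87 and the call was lost (edgeR adjusted p = 0.061).

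Nfu_g_1_021098, of 999 bases, had 36.4, 86.3, 68.8, 40.9 and 15.8 CPM in the 7-week libraries and 6.37, 10.9, 4.90, 5.44 and 7.70 CPM in the 14-week libraries. All 7-week libraries were above all 14-week libraries, with a wide spread at 7 weeks. The log2 change was -2.81, with an SE of 0.42 (edgeR adjusted p = 0.0024), and -2.67 with replicate 3 of 7 weeks left out (edgeR adjusted p = 0.0048). At 10 weeks its libraries lay at 6.99 to 11.1 CPM, close to 14 weeks, and at 5 weeks at 7.08 to 32.8 CPM with a mean of 15.9 CPM, below the 7-week mean of 49.6 ± 27.9 CPM (SD, n = 5). Its mean was thus highest at 7 weeks, although 5-week replicate 1 lay within the 7-week range.

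Nfu_g_1_017355 had 5.19, 16.7, 9.11, 15.9 and 5.70 CPM in the 7-week libraries and 1.71, 3.0, 3.54, 0.957 and 2.50 CPM in the 14-week libraries. Its log2 change was -2.17, with an SE of 0.38 (edgeR adjusted p = 0.0066), and -2.22 when 7-week replicate 3 was left out (edgeR adjusted p = 0.0075). Its libraries at 5 weeks, 7.02 to 16.5 CPM, covered much of the 7-week range, and those at 10 weeks, 1.64 to 3.88 CPM, covered much of the 14-week range. The fall of this gene thus lay between 7 and 10 weeks by its means, 10.5 and 2.79 CPM.

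**Figure D3:**
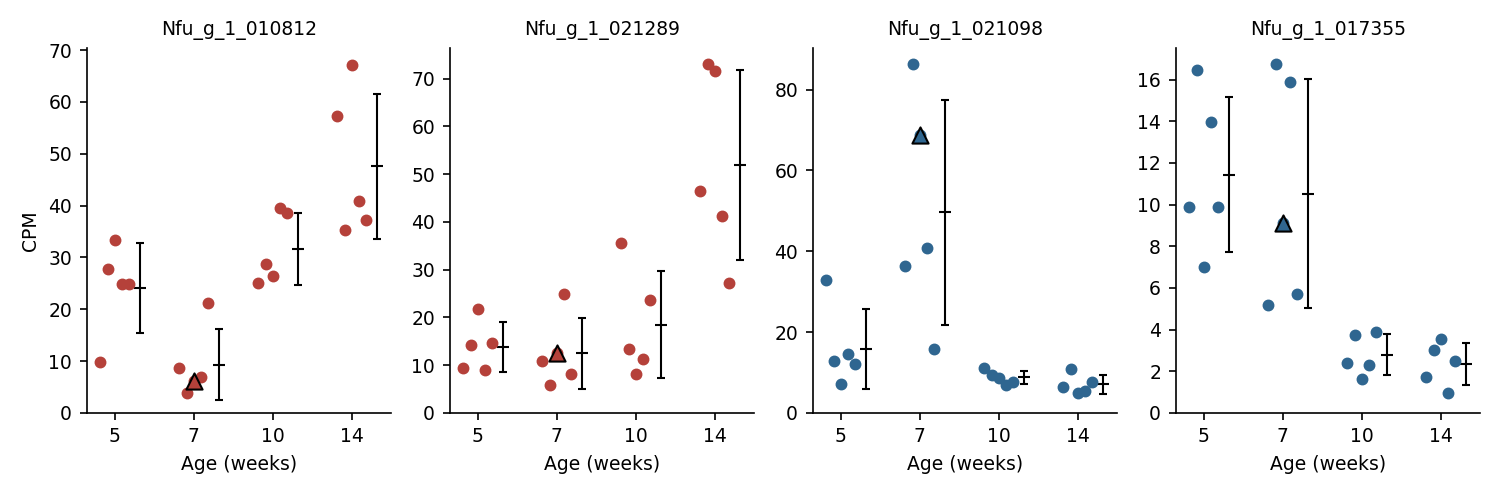
CPM of the 4 named genes in every library by age in weeks; the bar beside each group is its mean ± SD (n = 5) and the triangle is 7-week replicate 3. In each gene no 14-week library overlaps the 7-week libraries, while the 5- and 10-week libraries lie at different places between or beside them.

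A few genes were close to silent at 1 of both ages. Of the genes called, 2 fell from at least 100 counts over the 7-week libraries to at most 10 over the 14-week libraries. The first, of 432 bases, had 53, 31, 144, 45 and 47 counts in the 7-week libraries, and 3 counts in all at 14 weeks. That is a ratio of 85.3 per library size, for which counting error alone gives a 95% interval, by the exact method, from 28.9 to 416.0. It had 241 counts at 5 weeks and 21 at 10 weeks. The second, of 915 bases, had 40, 14, 83, 32 and 15 counts in the 7-week libraries and 2 counts in all at 14 weeks (ratio 73.6, interval 20.09 to 612.3), with 213 counts at 5 weeks and 11 at 10 weeks. In both, 7-week replicate 3 was the highest library, and both calls held without it (edgeR adjusted p = 0.0013 and 0.0015). The ratios were then 56.4 (interval 19 to 276.3) and 48.6 (interval 13.1 to 406.6). In the other direction 1 gene, of 1408 bases, went from 2, 0, 5, 3 and 0 counts at 7 weeks to 24, 9, 40, 29 and 6 counts at 14 weeks, a ratio of 13.5 with an interval of 7.06 to 28.95 (edgeR adjusted p = 0.022). Leaving out replicate 3 of 7 weeks, the ratio was 22.45 (interval 9.33 to 70.55; edgeR adjusted p = 0.015). These 3 genes were picked by their counts after these were seen.

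The largest fitted changes were mostly in weakly expressed genes and, like the called genes as a whole, were only in part stable. Of the 10 rises beyond 4-fold, 8 had a mean below 10 CPM, 6 separated all libraries and 3 were called without each of the 20 libraries in turn. Of the 8 falls beyond 4-fold, 7 had a mean below 10 CPM, 5 separated all libraries and 5 were called without each of the 20 libraries in turn. In the whole lists, 73 of the 282 rises and 54 of the 202 falls were called without each library in turn. Without 7-week replicate 3, 10 of these 10 rises and 7 of these 8 falls were called, against 413 of all 484 genes. A further 56 genes with a mean of at least 1 CPM were fitted as more than 4-fold lower at 14 weeks and were not called, with a median log2 fold change of -2.88 ± 1.35 (median SE). In 52 of them 7-week replicate 2 was more than 2-fold above every other 7-week library. The log2 difference between the median libraries of both ages had a median of -0.69 over the 56 genes. Of these 56 genes, 1 was called without 7-week replicate 3, against 3.91% of all genes of that fit. On the rising side 15 such genes were not called, 2 of which were called without that replicate, and 5 of the 15 had 14-week replicate 4 more than 2-fold above every other 14-week library. Both sets were chosen as large in fold change and not called, which favours genes high in 1 library. These counts are therefore no finding.

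The libraries of 5 and 10 weeks, which the contrast does not compare but which enter the filter, the scaling and the estimate of spread, placed the called genes in courses. On the scale from the 7-week mean (0) to the 14-week mean (1), the 10-week mean of the rising genes had a median of 0.71 (quartiles 0.52 and 0.87), and that of the falling genes 0.91 (0.73 and 1.06). The same median over all tested genes was 0.84, with quartiles of 0.13 and 1.48. The 5-week mean lay at 0.40 in the rising and 0.28 in the falling genes, against 0.32 over all genes. With that replicate left out at 7 weeks (replicate 3), the 10-week medians were 0.68 for the rising and 0.80 for the falling genes, against 0.68 over all genes, and the 5-week medians 0.45 and 0.42, against 0.54. The rising genes thus stood below all genes at 10 weeks with replicate 3 and level with them without it, and the falling genes stood above all genes both times, none of which was tested. The scale divides by the difference between 14 and 7 weeks. Over all genes this difference had a median size of 0.18 in log2 units and a median SE of 0.18. Their places on the scale are thus loosely set. The called genes were chosen for a clear difference, so all genes are no matched comparison.

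Among the rising genes, 133 (47.2%) had a 5-week mean nearer to 7 weeks and a 10-week mean nearer to 14 weeks, a course with the main rise between 7 and 10 weeks. The means of 39.1% of all tested genes, whether higher or lower at 14 weeks, were placed this way, and the other shares of all genes below also take both directions together. Another 89 (31.6%, against 25.6% of all genes) had both means nearer to 14 weeks, so that 7 weeks was a low point. In these 89 the median relative level was 0.05 to 0.21 in the 5-week libraries, -0.45 to -0.22 in the 7-week libraries, 0.13 to 0.31 in the 10-week libraries and 0.27 to 0.42 in the 14-week libraries. The courses here and below were set by the 5- and 10-week means. Levels of such a class at 5 and 10 weeks therefore describe it and are no further evidence. A late rise, with both means nearer to 7 weeks, was seen in 47 genes (16.7%, against 18.55%), and these had the largest changes, with relative levels of -0.33, -0.59, -0.14 and 0.59 in order of age. The other 13 were nearer to 14 weeks at 5 weeks only.

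Among the falling genes, in 134 of the 202 (66.3%, against 39.1% of all genes) the 5-week mean was nearer to 7 weeks and the 10-week mean nearer to 14 weeks. Ordered by age, the median relative level of these 134 was 0.17, 0.27, -0.25 and -0.27. In 48 (23.8%, against 25.6% of all genes) both means were nearer to 14 weeks, which makes 7 weeks a high point. That share was thus no larger than over all genes. A late fall was seen in 14 (6.93%, against 18.55%). Leaving out 7-week replicate 3, the share with the fall between 7 and 10 weeks was 51.0% (147 genes), the share with a high point at 7 weeks was 32.3% (93 genes), and 18 genes (6.25%) fell late. For the rising genes it was 37.8% (180 genes) for the rise between 7 and 10 weeks and 34.5% (164 genes) for the low point at 7 weeks, and 85 genes (17.9%) rose late. Over all genes of that fit the shares were 30.95% for a change between 7 and 10 weeks, 27.9% for an extreme at 7 weeks and 17.5% for a late change. No difference between these shares, between the lists or against all genes, was tested, and the genes were chosen by the 7- and 14-week means that set the scale. All genes, whose places on that scale are loosely set, are no matched comparison for these shares either.

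Leaving out 7-week replicate 3 changed which genes were called. Of the 484 genes, 413 (85.3%) were called in the same direction without it, and these made up 53.9% of the 766 genes called then. The other 71, 33 rising and 38 falling, were lost, with edgeR adjusted p-values of up to 0.082. In 70 of these 71 replicate 3 lay on the side of the other 7-week libraries' mean that is away from 14 weeks, and their median absolute log2 fold change went from 0.61 to 0.49. Another 353 genes, 229 rising and 124 falling, were called only without it, 2 of which were not tested with it. Among the other 351, replicate 3 lay nearer to the 14-week mean than to that of the other 7-week libraries, or beyond it, in 314, and the median absolute log2 fold change went from 0.43 to 0.56. The lost and the gained genes were chosen by how their call moved without replicate 3. Its place in them and the shift of their fold changes follow from that choice and are no finding. In the 413 genes called both times this median was 0.66 with and 0.64 without replicate 3.

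The library's distance from its group was seen in a broad set of genes. Of the 12821 genes with a mean of at least 8 CPM, replicate 3 fell short of the other 7-week libraries' median by over 2-fold in 1864 and exceeded it by over 2-fold in 334. These sets were chosen on that library against the others of 7 weeks, so neither their level there nor the way their fold changes and calls move when it is left out is a finding. In the 1864 genes the median relative level was -1.51 in replicate 3 and 0.29 to 0.33 in the other 7-week libraries. In the 14-week libraries it was 0.14 to 0.22 in replicates 1 to 4 and -0.27 in replicate 5. In 1262 of the 1864 genes (67.7%) replicate 5 was the lowest of the 14-week libraries, against 22.8% of all genes of this abundance. The 334 genes high in 7-week replicate 3 were highest in 14-week replicate 5 in 135 cases (40.4%, against 22.6%). In 5-week replicate 5 the 1864 genes were also low, at -0.75, with 0.04 to 0.13 in the other 5-week libraries. A lower level of the same set was thus present in 1 library of each of these 3 ages, and none of the 10-week libraries, at 0.20 to 0.35, had it.

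The calls and fold changes of these genes are given with and without 7-week replicate 3 as a description only. Both sets were chosen on that library, so how they move is no finding. The shares of all tested genes also cover genes below the abundance limit of both sets and are no matched comparison. With the library, 3 of the 1864 were called (0.161%, against 2.49% of all tested genes) and their median log2 fold change was 0.00. Without it, 45 were called (2.41%, against 3.91%), 34 of them lower and 11 higher, and the median was -0.21. Of the 334 genes high in that library, 4 were called with it (1.20%), and 23 without it (6.89%), all of them higher at 14 weeks, and their median log2 change went from -0.08 to 0.20. With both 7-week replicate 3 and 14-week replicate 5 left out, 353 genes rose and 181 fell over the whole table.

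The lengths behind the authors' RPKM values allowed the calls to be sorted by gene length. Rising genes had a median of 3697 bases and falling genes 3426, against 2670 over all tested genes. Of the genes in the longest quartile, above 4670 bases, 101 rose (2.08%) and 62 fell (1.27%), and of those in the shortest quartile, up to 1328 bases, 40 rose (0.822%) and 22 fell (0.452%). The precision also differed, with a median standard error of 0.21 in the shortest and 0.15 in the longest quartile. Its part in these shares was not tested. With 7-week replicate 3 left out the median length was 2849 bases in the rising and 4346 in the falling genes, and 121 (2.49%) of the longest quartile rose and 137 (2.82%) fell, while in the shortest quartile 85 (1.75%) rose and 26 (0.534%) fell. The order of rising and falling genes thus turned in the medians and in the longest quartile, and not in the shortest. All tested genes shifted as well when replicate 3 was left out. Their median log2 fold change went from 0.01 to -0.036 in the longest quartile and from -0.011 to 0.009 in the shortest. The turn is therefore not read as a trait of the called genes alone. The order of the medians also turned in some other fits. It was 3439 bases in the rising and 3590 in the falling genes by limma-voom, and 3868 and 3923 with only 7 and 14 weeks in the fit. With 1 surrogate variable it was 3084 and 3171. Leaving out 14-week replicate 1 gave 3223 and 3284, and leaving out 14-week replicate 3 gave 3176 and 3283. The order seen with all libraries was kept by DESeq2, with 3364 bases in the rising and 3166 in the falling genes. It was also kept without 7-week replicate 1, 2, 4 or 5 and without 14-week replicate 2, 4 or 5. With only 7-week replicates 1 to 3 kept, the median was 4435 bases in the rising and 2538 in the falling genes.

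The libraries themselves differed along gene length. The median relative level of the longest quartile minus that of the shortest was -0.40 on the log2 scale in 7-week replicate 3, -0.05 and 0.00 in 7-week replicates 1 and 2, and 0.12 and 0.15 in 7-week replicates 4 and 5. At 14 weeks it was 0.01, 0.10, 0.09, -0.11 and -0.06 in replicates 1 to 5. With replicate 3 the 7-week libraries thus covered a wider range than the 14-week libraries and lay on both sides of them. Without replicate 3 the 7-week libraries ran from -0.05 to 0.15, against -0.11 to 0.10 at 14 weeks. These ranges were about as wide, and no 7-week library then lay below all 14-week libraries. However, 7-week replicates 4 and 5 lay above all 14-week libraries. In turn, 14-week replicates 4 and 5, at -0.11 and -0.06, lay below all 7-week libraries but replicate 3. The part of this gradient in the calls of long and short genes was not tested.

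**Figure D4:**
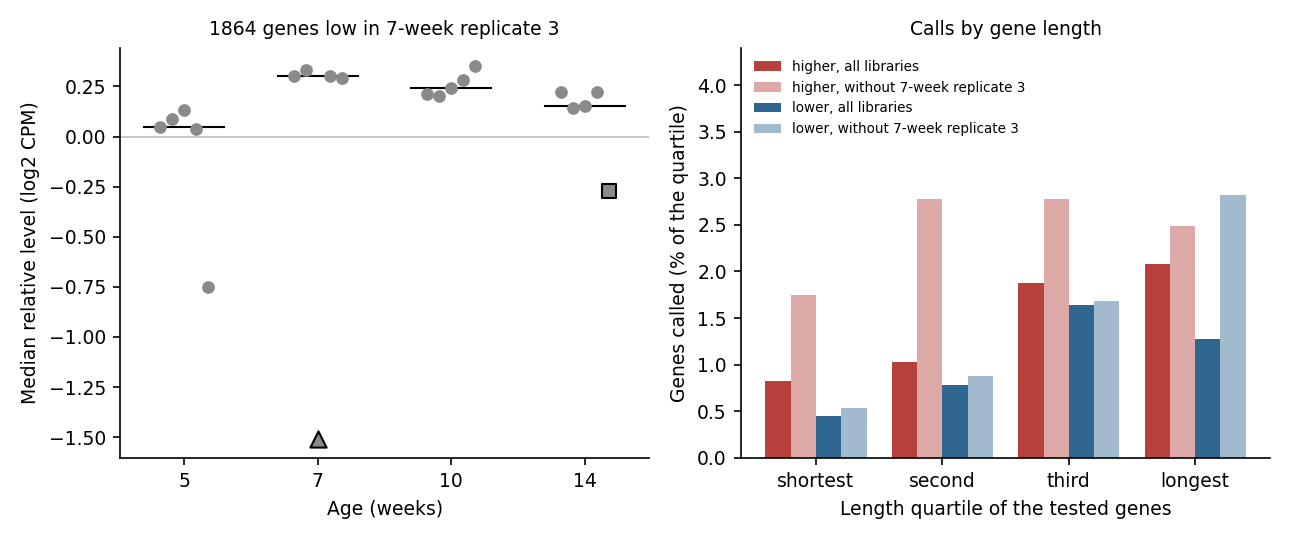
Left, median relative level (log2 CPM) of the 1864 genes chosen as low in 7-week replicate 3 (triangle), 1 point per library by age in weeks with a bar at each age's median; 14-week replicate 5 (square) and 1 library of 5 weeks are also below 0. Right, percent of each length quartile of the tested genes called higher or lower at 14 than at 7 weeks, with all libraries and without 7-week replicate 3; falling genes of the longest quartile go from 1.27% to 2.82%.

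The length of both lists changed with single libraries. Leaving out 7-week replicate 2 gave 77 rising and 56 falling genes, and leaving out 7-week replicate 4 gave 128 and 104. Of the 14-week libraries, leaving out replicate 1 gave 117 and 83, replicate 3 gave 145 and 90, and replicate 4 gave 127 and 71. Leaving out 1 library of neither age compared gave from 190 and 130, without 10-week replicate 2, to 420 and 269, without 5-week replicate 5. Starting from the fit without 7-week replicate 3, the 766 calls became 101 without replicate 2, 219 without replicate 4 and 423 without replicate 1 of 7 weeks, and 342, 389 and 467 without replicates 1, 3 and 4 of 14 weeks. In 127 genes, 73 rising and 54 falling, the call held without each of the 20 libraries in turn. These 73 rose by a median of 0.999 in log2 units, with sizes from 0.51 to 2.35, and the 54 had a median of -0.65, with sizes from 0.41 to 6.28. All 127 were also called by DESeq2 and by limma-voom, which called 542 genes (2.78%) in all. When only the libraries of 7 and 14 weeks entered the fit, 43 of the 73 and 16 of the 54 were called. The 127 were chosen as stable in the same counts, and of all 484 genes DESeq2 called 482 and limma-voom 449. The calls of the 127 by these tools are thus no further evidence.

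**Figure D5:**
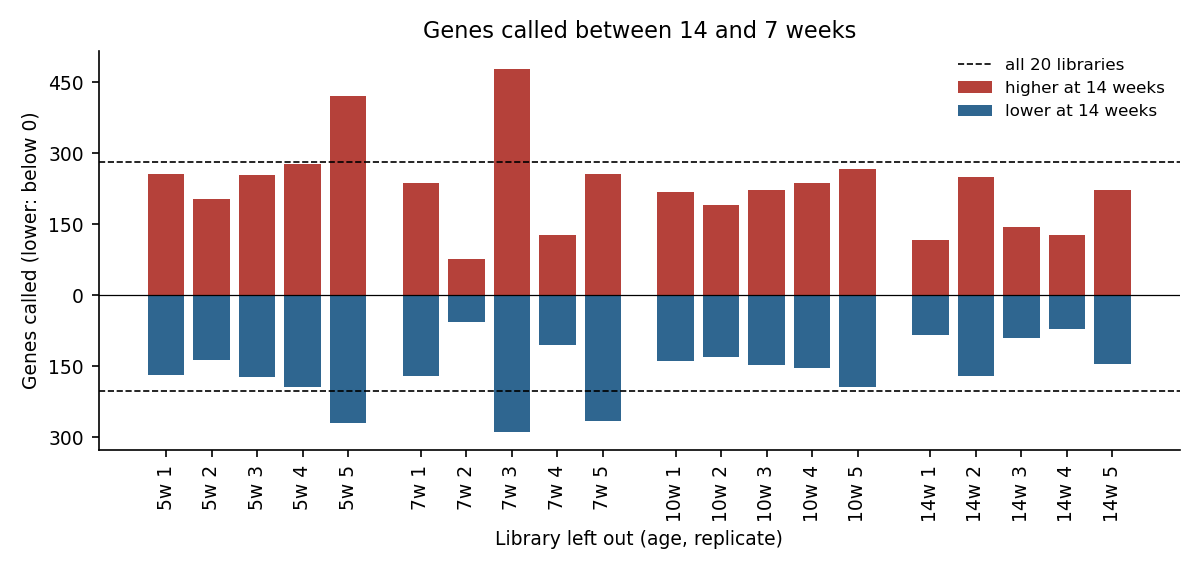
Number of genes called higher (above 0) and lower (below 0) at 14 than at 7 weeks with each of the 20 libraries left out in turn (age in weeks, replicate); dashed lines mark the 282 and 202 genes called with all libraries. The counts run from 77 and 56 without 7-week replicate 2 to 478 and 288 without 7-week replicate 3.

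The fit of only these 10 libraries called 58 genes higher and 21 lower, 0.416% of 18976 tested, and all 79 were among the 484. The same fit of the other 9 libraries, with 7-week replicate 3 left out, gave 514 genes higher and 285 lower (4.19%), of which 317 were among the 484. By DESeq2 on the 20 libraries 564 genes were higher and 501 lower (5.47%), with 482 of the 484 among them. None of the 484 genes was called in the opposite direction by any of these 3 fits. All fits share the counts on which the 484 were chosen, so this was nearly fixed in advance and is no further evidence.

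The sample titles carry running numbers, in which 7-week replicates 4 and 5 stand directly before the 14-week libraries and replicates 1 to 3 before the 10-week libraries; the labels do not say what the numbers mean. With only replicates 4 and 5 as 7-week libraries, 7 genes rose and 5 fell (0.0597%), all 12 of them among the 484, and with only replicates 1 to 3, 162 rose and 235 fell (2.0%). The first of these fits has 2 libraries at 7 weeks and the second 3. The median log2 change of the 282 rising genes was 0.69 against replicates 4 and 5 and of 0.81 against replicates 1 to 3, and that of the 202 falling genes -0.43 and -0.61. Each of the 484 genes had the same sign in both, which their choice on all 5 libraries favours. Whether the larger difference from replicates 1 to 3 goes with the numbering was not tested.

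Properties of whole libraries did not differ between both ages beyond their spread after adjustment over the 4 measures compared (exact permutation tests, two-sided; smallest possible p 0.0079). The total counts, whose ranges overlapped, had a lower mean in the 14-week libraries (exact permutation p = 0.048, adjusted p = 0.095). The 14-week libraries had 251 more genes at 1 CPM or above, with 17493 to 17935 genes at 14 weeks and 17194 to 17611 at 7 weeks (exact permutation p = 0.040, adjusted p = 0.095). The 100 most abundant genes took 13.5% of the counts (SD 0.695, n = 5) in the 14-week libraries and 13.7% (SD 1.79, n = 5) in the 7-week libraries (exact permutation p = 0.87). The distance of a library from the centre of its age in log2 CPM averaged 51.2 (SD 11.7, n = 5) in the older and 63.25 (SD 29.2, n = 5) in the younger group (exact permutation p = 0.52). Each library counts in its own centre, which shortens the distance more with 4 libraries than with 5, and the size of this effect was not tested. With 7-week replicate 3 left out the 7-week mean was 41.99 ± 7.32 (SD, n = 4), so that the sign of the difference turned (exact permutation p = 0.21, adjusted p = 0.27). It turned as well for the share of the 100 most abundant genes, which was then 12.96% (SD 0.472, n = 4) in the 7-week libraries (exact permutation p = 0.27, adjusted p = 0.27). The differences in total counts (exact permutation p = 0.048, adjusted p = 0.16) and in genes at 1 CPM or above, then 181.9 more in the 14-week libraries (exact permutation p = 0.079, adjusted p = 0.16), kept their direction.

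Gene by gene, the spread between libraries followed the same library. The median SD of log2 CPM over all tested genes was 0.28, 0.32, 0.19 and 0.23 in order of age, and 0.17 for the 7-week libraries without replicate 3. In the falling genes it was 0.15 at 14 weeks, and 0.22 at 7 weeks with and 0.15 without replicate 3. In the rising genes it was 0.24 at 14 weeks, and 0.26 and 0.20 at 7 weeks.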

How the data were processed

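Libraries of brain RNA (20 samples) were prepared with Illumina's TruSeq kit, per the labels' protocols. Per the submitters' processing notes, the tools were featureCounts 1.4.6-p4, STAR 2.4.1d and CASAVA 1.8.2; build, annotation and strand are not given in the sources used, so overlapping and antisense genes cannot be told apart. The authors deposited whole-number read counts per gene. In the deposited RPKM table, the library totals were applied in rotation down the rows (25 totals; this returned 99.98% of the nonzero values to within 0.0011, and own totals 4.43%, in genes whose RPKM summed to over 1). It served only to solve lengths.

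Counts were fitted in R 4.3.3 with edgeR 4.0.16 (TMM, filterByExpr by age, robust quasi-likelihood fit of all 20 libraries, 1 mean per age), and Benjamini-Hochberg adjusted p-values over the whole table. The standard error is the log2 fold change divided by the square root of F. log2 CPM used a prior count of 2. Alternatives included DESeq2 1.42.0, limma-voom (limma 3.58.1), sva 3.50.0, other filters and scaling, and leaving out libraries. The code was tested on simulated data. Named genes had to be called with and without 7-week replicate 3, separate all 10 libraries and have a mean of at least 5 CPM over all 20; ranked by fold change, the first 2 in each direction are printed, since no symbols are paired with identifiers. Replicate numbers follow accession order. Whether each sample is 1 fish is not said in the labels; p-values measure the spread between these samples. No library pair of 1 age looked like a repeat deposit (lowest chi-square per degree of freedom 8.67). The comparison, lists and tests were chosen with earlier results of these data known. Intervals cover counting error only.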

Additional observations from a re-analysis of the deposited data

Results flagged for a closer look

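Of 16 groups of 5 values checked for a library far from the others, 3 held one, where chance gives about 1 in 20 for unchosen groups. The library measures flagged were of 7-week replicate 3, already known to stand apart, and the gene flagged was chosen for its change. The groups were thus neither independent nor unchosen, and the number of flags is no finding. In 7-week replicate 3 the 100 most abundant genes took 16.85% of the counts, against 12.4% to 13.5% in the other 7-week libraries. The distance of 7-week replicate 3 from the centre of its age was 113.8, against 42.5 to 61.9 for the others. Nfu_g_1_010812 stood at 21.2 CPM in 7-week replicate 5, against 3.82 to 8.57 CPM in the other 7-week libraries.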

How the results depend on the processing

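The count of 484 genes was 1065 by DESeq2 (564 higher, 501 lower), 1255 with 1 surrogate variable (743 and 512), 79 with only 7 and 14 weeks in the fit (58 and 21), 799 in that fit without 7-week replicate 3 (514 and 285), 12 with only 7-week replicates 4 and 5 (7 and 5), and 94 at an adjusted p below 0.01 (58 and 36). Without a filter on low counts 183 genes were higher, and with only 7-week replicates 1 to 3, 162 were. With 1 library left out the counts ran from 133 to 766 in all, from 77 to 478 higher and from 56 to 288 lower. The count of 766 without 7-week replicate 3 was 1591 by DESeq2 and ran from 101 to 785 with 1 more library left out; both were added after seeing the data. DESeq2 size factors, a filter at 1 CPM, no robust step and limma-voom gave 478, 484, 484 and 542 genes. With only 7-week replicates 4 and 5, no named gene was called, at log2 changes of 1.76, 1.65, -2.01 and -2.21 (edgeR adjusted p = 0.17, 0.31, 0.10 and 0.073, in the order above). With only 7 and 14 weeks in the fit Nfu_g_1_021289 (2.05) and Nfu_g_1_017355 (-2.18) lost the call at nearly the same size (adjusted p = 0.057 each), as did Nfu_g_1_021289 (2.06) without 7-week replicate 3 in that fit (0.052). The cause of these differences was not tested. Of the library measures none passed the adjusted threshold, but with 9 libraries the smallest exact permutation p is 0.0159, so that 1 measure alone could not pass after adjustment over 4; the number of genes at 1 CPM or above reached that limit without 14-week replicate 5 (adjusted p = 0.063), where the ages did not overlap. No paired analysis was possible because the labels give no replicate numbers. Depth limits genes below 1 CPM, where the median standard error was 0.46.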

Other observations

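Some genes with a mean of at least 1 CPM were fitted as more than 4-fold lower at 14 weeks and were not called. In 52 of them 7-week replicate 2 was more than 2-fold above the other 7-week libraries. These 52 had a median of 79.97 CPM in that library. In the other 7-week libraries their median was 2.03 to 3.41 CPM, and at 14 weeks it was 1.28 to 4.45 CPM. In 5-week replicate 4, which entered their choice through the spread of the fit of all 20 libraries, their median was 154.7 CPM, against 1.46 to 7.75 CPM in the other 5-week libraries, and no 10-week library was above 3.43 CPM. With 7-week replicate 2 left out, 0 of the 52 were called between 14 and 7 weeks by edgeR. That fit called 133 genes of the whole table. The 52 were chosen as not called and as high in 7-week replicate 2. Their level in that library and the 0 follow in large part from this choice and are no finding. Among the 202 falling genes, 1 had 7-week replicate 2 and 2 had 7-week replicate 3 more than 2-fold above every other 7-week library.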
